A study of Mus musculus with 6 samples.

Results

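The transcripts of 9 genes of the acute phase and of iron handling (Saa3, Hp, Cp, Fth1, Ftl1, Tfrc, Slc39a14, Slc11a1 and Slc40a1) were followed in mouse bone marrow treated with DEK, a chromatin-binding protein that some blood cells release. They are 9 of the 24421 genes with a row in the deposited count table, and all 9 passed the filter on low counts, as did 13803 genes in all. The genes were chosen by name and function with their DEK-against-vehicle differences already known, so those differences are given here as a description. The 3 libraries of the DEK group came from lineage-depleted marrow of C57BL/6 mice labelled Dek -/- and treated with exogenous DEK, and the 3 libraries of the vehicle group from the same kind of marrow treated with vehicle. The labels give all 6 libraries the Dek -/- genotype, and no Dek wild-type cells were compared. Dek itself had 781, 869 and 712 counts in DEK replicates 1, 2 and 3, against 863, 672 and 733 counts in vehicle replicates 1, 2 and 3. These whole-gene counts do not resolve the deleted stretch, so the labelled genotype could not be checked from them. Cells flushed out of femurs passed 2 magnetic columns in a row to remove lineage-positive cells. The removed cells are not analysed here, and transcripts of neutrophil and eosinophil markers remained in all 6 libraries. Dose, duration and source of the protein, and the age and sex of the mice, are not given in the labels, nor whether replicates came from separate animals, so the spread between libraries may be technical.

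Acute phase proteins are secreted into plasma in inflammation, mostly by the liver under the control of interleukin 6 and interleukin 1, and several of them are also made by myeloid cells. Iron enters most cells bound to transferrin through the transferrin receptor, is stored inside ferritin, a shell built of heavy and light chains, and leaves through ferroportin after oxidation by ceruloplasmin or its relatives. Iron regulatory proteins tie these steps together after transcription. When iron is scarce they bind hairpins called iron-responsive elements, which blocks translation when the hairpin lies in the 5′ untranslated region and stabilises the transcript when it lies in the 3′ untranslated region. Inflammation moves iron into macrophages and out of the plasma.

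Iron-responsive elements are shown here because they were found in 4 of the 9 genes. In the 5′ untranslated region they act on translation, which counts of reads do not measure. In the 3′ untranslated region they act on transcript stability, which can alter the counts. Other kinds of control after transcription were not searched for. A search of the longest coding transcript of each gene in GENCODE M21 (build GRCm38) looked for the loop CAGTGN, with any base but G in the last place, behind an unpaired C and a stem of 5 pairs, with at least 3 of the next 5 positions paired as well. It found an element in 62 of 21877 genes (0.283%), among them Fth1, Ftl1, Slc40a1 and Tfrc. The first 3 carry 1 each in the 5′ untranslated region, at chr19:9982732-9982761 on the plus strand, chr7:45459778-45459807 on the minus strand and chr1:45925464-45925493 on the minus strand. The capitals mark the loop.
Fth1: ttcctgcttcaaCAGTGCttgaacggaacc
Ftl1: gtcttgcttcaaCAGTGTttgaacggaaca
Slc40a1: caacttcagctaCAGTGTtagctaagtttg
Tfrc carries 4 such elements in its 3′ untranslated region on the plus strand of chromosome 16, from chr16:32631219-32631248 to chr16:32631710-32631739, with 2 between them. The first and the last are printed.
Tfrc first: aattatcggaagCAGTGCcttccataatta
Tfrc last: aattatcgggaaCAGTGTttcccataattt
The search found no element in Saa3, Hp, Cp, Slc39a14 or Slc11a1. It also found none in Slc11a2 and Epas1, which are counted below among transcripts with iron-responsive elements. The search can therefore miss elements, and its negatives do not show that a gene has none.

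The promoter of Saa3 is shown because Saa3 had the largest fold difference of the 9 genes. RefSeq promoter windows (GRCm38.p6) were matched for 6 of the 9 genes, and those of Hp, Slc40a1 and Slc39a14 were not matched. The 250 bases before the start of Saa3 lie at chr7:46715677-46715926 on the minus strand. Capitals mark loose matches to the letters TTNNGNAA, a pattern bound by C/EBP transcription factors, on either strand.
Saa3 promoter: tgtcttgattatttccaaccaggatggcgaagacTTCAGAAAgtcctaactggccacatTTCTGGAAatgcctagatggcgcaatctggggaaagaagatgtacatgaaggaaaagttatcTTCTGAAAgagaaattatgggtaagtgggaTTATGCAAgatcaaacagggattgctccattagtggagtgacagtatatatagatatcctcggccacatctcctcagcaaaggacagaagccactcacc
It holds 4 such matches, the nearest from 99 to 92 bases before the start, and no match to GGGA, any 4 bases and CC, a pattern of NF-kB, or to TTCNNNGAA, a pattern of STAT proteins. None of the matches overlap. At least 1 match was found in 36.8% of 32851 promoter windows of that length for TTNNGNAA, in 17.6% for the NF-kB pattern and in 7.02% for TTCNNNGAA. Among the other genes, the window of Slc11a1 held 3 matches to TTNNGNAA, those of Fth1 held 1 and 2, that of Ftl1 held 1, both of Cp held 1 each, and both of Tfrc held none. One window of Cp and one of Fth1 also held 1 match to the NF-kB pattern.

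Between 34875736 and 49128378 reads were counted per library. The gene Rn45s took 4.885% of counts in vehicle replicate 1 and 0.159 to 0.331% in the other libraries. This lowers the shares of other genes in vehicle replicate 1. The libraries numbered 3, of either group, differed from the rest in their content of cell type markers. The neutrophil marker list (14 of 15 genes with a row) took 6.04% of counts in DEK replicate 3 and 6.85% in vehicle replicate 3, against 0.707 to 0.953% in the other DEK libraries and 0.748 to 0.776% in the other vehicle libraries. Progenitor markers such as Mpo, Kit and Cd34 were present throughout, at 0.572 to 0.997% of counts with DEK and 0.767 to 0.934% with vehicle. Of the 8 hepatocyte markers, 5 (Alb, Ttr, Serpina1a, Fgb and Tat) had 0 counts in all 6 libraries, and the list took at most 4.89e-05% of counts with DEK and 5.78e-05% with vehicle. Libraries with equal replicate numbers deviated from their group means together, and fold changes are given within these pairs unless marked as unpaired. Across genes these deviations correlated at 0.55, 0.56 and 0.80 for numbers 1, 2 and 3. DEK replicate 2 with vehicle replicate 1 (0.41) and DEK replicate 1 with vehicle replicate 2 (0.52) came near. Only the libraries numbered 3 thus stood apart, and the labels give no source for pairing. The main test, without pairing, called 0 of 13803 genes.

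The 3 acute phase genes were higher in each DEK library than in any vehicle library, Cp by 3.13-fold, Hp by 1.87-fold and Saa3 by 5.55-fold within pairs. Hp and Cp rose past the threshold of an adjusted p of 0.05 in edgeR's quasi-likelihood test within pairs, and Saa3 did not. The 6 iron storage and transport genes did not pass. So 2 of 9 genes were called, where 1.28% of all genes tested were, or 0.869% when only genes higher with DEK are counted and 0.413% when only genes lower with DEK are. With pair 1, 2 or 3 left out, 1.3%, 0% and 4.64% of all genes tested were called within pairs. Without pairing, edgeR called 0 of 13803 genes and 0 of the 9, with 360 of all genes (2.61%) and 3 of the 9 at an unadjusted p under 0.05. In the unpaired design DESeq2 called 56 genes, 2 of them among the 9 (Saa3 and Cp), and limma-voom called 0.

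Saa3 (chromosome 7, 46711998 to 46715676, minus strand, mm10) encodes serum amyloid A3, the member of its family made chiefly outside the liver. It had 314, 777 and 506 CPM (counts scaled to library size by TMM) in DEK replicates 1, 2 and 3, against 98.4, 63.3 and 113 CPM in vehicle replicates 1, 2 and 3. The groups did not overlap: the lowest DEK library stood well above the highest vehicle library. The means were 532 ± 232 CPM with DEK and 91.5 ± 25.5 CPM with vehicle (SD, n = 3 each). Within pairs 1, 2 and 3 Saa3 was 3.19-fold, 12.3-fold and 4.48-fold higher with DEK, so the pairs agreed in direction and differed widely in size. The fit within pairs gave a log2 fold change of 2.47 ± 0.58 (SE), and the unpaired fit gave 2.54 ± 0.39. DESeq2 called Saa3 in the unpaired and the paired design alike, and edgeR and limma-voom in neither. Leaving out pair 2 lowered the fold to 3.81, and leaving out pair 1 raised it to 7.40.

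The family members Saa1 and Saa2, which the liver makes in the acute phase, had at most 2 counts and 0 counts in any library, and Saa4 had 0 counts. Reads that aligned to more than 1 place were not counted by default, so the Saa3 count can miss any reads shared with other genes and is uncertain to that extent. Whether such reads occurred was not tested. In DEK replicate 2, Saa3 took 0.0802% of all counts (Wilson 95% interval 0.0794 to 0.0810%), the highest share among the 6 libraries. In vehicle replicate 2 it took 0.00664% (0.00639 to 0.00691%), the lowest share. Such intervals cover counting error only.

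Hp (chromosome 8, 109575128 to 109579172, minus strand) encodes haptoglobin, a plasma protein that captures free haemoglobin and is also stored in granules of neutrophils. It had 1211, 1821 and 1736 CPM in DEK replicates 1, 2 and 3, against 739, 757 and 1049.6 CPM in vehicle replicates 1, 2 and 3. All 3 DEK libraries exceeded all 3 vehicle libraries, and vehicle replicate 3 was the highest of its group. Hp averaged 1589 ± 330.1 CPM with DEK and 849 ± 174 CPM with vehicle (SD, n = 3 each). It was 1.64-fold, 2.40-fold and 1.65-fold higher in pairs 1, 2 and 3. The fit within pairs gave Hp a log2 fold change of 0.90 ± 0.13 (SE), and Hp passed in all 7 fits within pairs that kept all libraries. Its call was also kept without pair 1 and without pair 3, at 1.99-fold in either case, and was lost without pair 2 (1.66-fold), where edgeR called 0 genes in all.

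Neutrophil content was read from the share of counts in its marker list, which averaged 2.57 ± 3.01% with DEK and 2.79 ± 3.51% with vehicle (SD, n = 3 each; p = 0.8 by an exact permutation test, two-sided). With 3 libraries against 3, such a test cannot give a p below 0.1. Of its 14 genes tested, 1 was called within pairs, Lcn2. The neutrophil share was higher with DEK in pair 1 and lower with DEK in pairs 2 and 3. In bulk RNA, a change in the number of cells of a type and a change in RNA per cell cannot be told apart. The monocyte list held 3 called genes of 8, all higher (Ms4a4c, Cx3cr1 and Ly6c2), and took 0.861 ± 0.226% of counts with DEK and 0.699 ± 0.124% with vehicle (SD, n = 3 each; exact permutation p = 0.3, two-sided). Of all genes tested, 1.28% were called within pairs. The monocyte share was higher with DEK in 3 of 3 pairs. In CPM, Ms4a4c, Cx3cr1, Ly6c2 and Csf1r were higher with DEK in each pair. Ccr2 was lower with DEK in pairs 2 and 3, and F13a1, Klf4 and Fn1 were lower in pair 3. The eosinophil list took 0.303 to 1.18% of counts with DEK and 0.454 to 1.44% with vehicle (exact permutation p = 0.5, two-sided), was lower with DEK in 3 of 3 pairs, and held 2 called genes of 8, Epx and Prg3, both lower. The part of neutrophil, monocyte or eosinophil content in the levels of the acute phase genes was not tested.

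Cp (chromosome 3, 19957054 to 20009750, plus strand) encodes ceruloplasmin, a copper-carrying ferroxidase that is both an acute phase protein and a partner of ferroportin. It had 26.5, 35.7 and 26.6 CPM in DEK replicates 1, 2 and 3, against 10.6, 6.83 and 11.1 CPM in vehicle replicates 1, 2 and 3. The DEK libraries were all above the vehicle libraries, and DEK replicate 2 was the highest while vehicle replicate 2 was the lowest. The means were 29.6 ± 5.30 CPM with DEK and 9.51 ± 2.33 CPM with vehicle (SD, n = 3 each). Cp was 2.50-fold, 5.20-fold and 2.39-fold higher in pairs 1, 2 and 3, with a log2 fold change of 1.65 ± 0.24 (SE) within pairs. This call lay just inside the threshold: Cp ranked 177th by p among the 177 genes called. It was lost without pair 1 (3.52-fold), without pair 2 (2.47-fold) and with no filter on low counts, and kept without pair 3 (3.59-fold).

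Exons of Cp overlap those of Hps3, a gene for an organelle-trafficking protein on the opposite strand, over 108 of 6265 exon bases (1.72%). Reads in that stretch were counted for neither gene, because the counting ignored strand. The Cp value is therefore uncertain, by a share of reads that was not measured. With introns included, the genes overlap from 19995945 to 20009750 on chromosome 3. Whether unspliced reads of one gene were counted for the other there was not tested. Hps3 itself had 83.9 ± 2.43 CPM with DEK and 81.0 ± 6.89 CPM with vehicle (SD, n = 3 each), and was not called (log2 fold change 0.05 ± 0.09, SE, within pairs). The ratio of Cp to Hps3 counts was 0.326, 0.414 and 0.317 in DEK replicates 1, 2 and 3, against 0.137, 0.0891 and 0.125 in vehicle replicates 1, 2 and 3. No exons of the other 8 genes overlap those of another gene in the table.

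**Figure D1:**
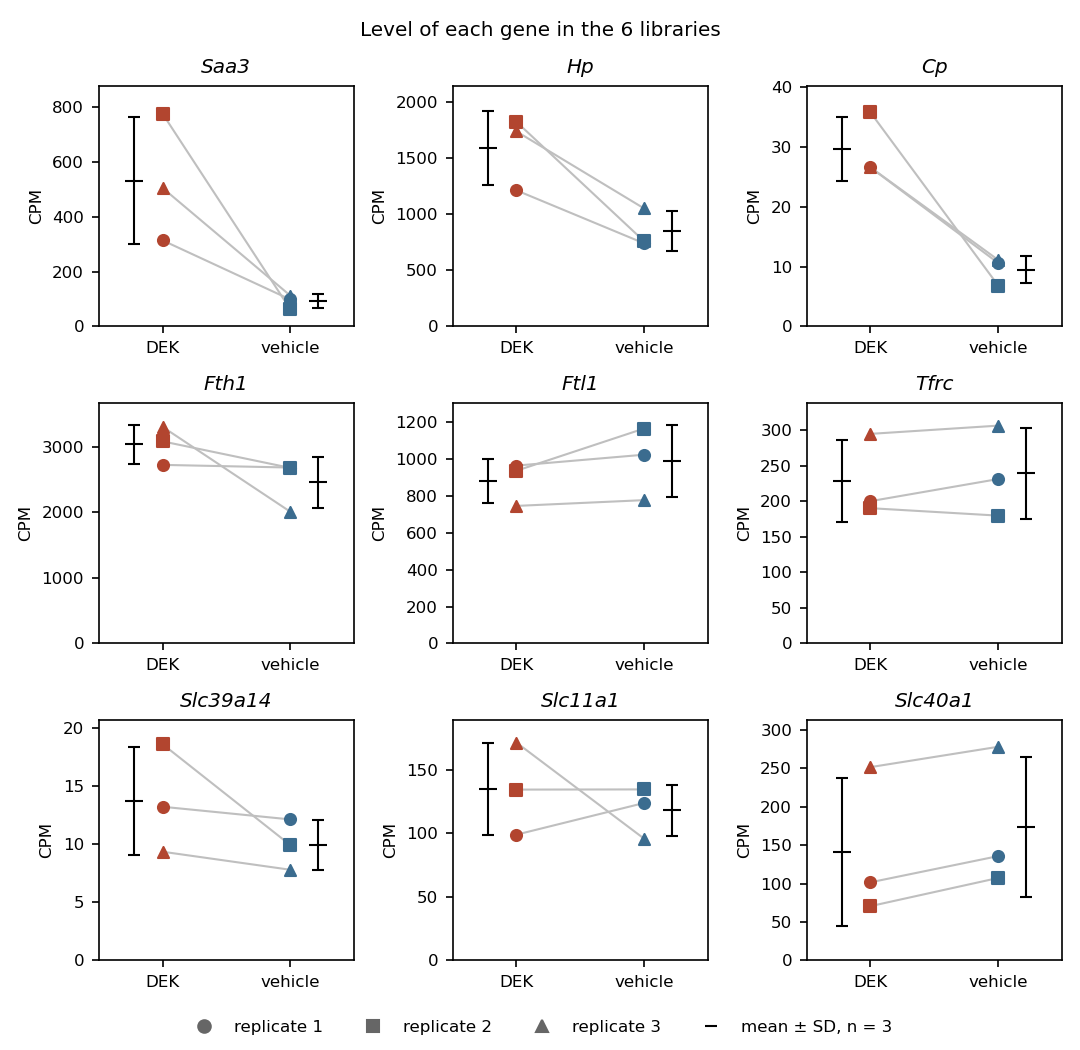
Level of each gene in CPM (vertical axes from 0) in the DEK libraries (left of each panel) and the vehicle libraries (right), with symbols for replicate numbers, grey lines between equal numbers and bars for mean ± SD (n = 3). Saa3, Hp, Cp and Fth1 have DEK points that all lie above the vehicle points, and the other 5 genes overlap between groups.

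The ferritin chains went different ways within pairs, and neither passed the threshold. Fth1 (chromosome 19, 9980600 to 9985111, plus strand) encodes the heavy chain, which oxidises iron as it enters the shell. It had 2726, 3085 and 3307 CPM in DEK replicates 1, 2 and 3, against 2685, 2680.4 and 2012 CPM in vehicle replicates 1, 2 and 3. The groups did not overlap, but DEK replicate 1 lay close to vehicle replicates 1 and 2. Fth1 averaged 3039.6 ± 293 CPM with DEK and 2459 ± 387 CPM with vehicle (SD, n = 3 each), and its log2 differences in pairs 1, 2 and 3 were 0.02, 0.20 and 0.72. Within pairs its fold change on the log2 scale was 0.31 ± 0.14 (SE), and 0.11 without pair 3.

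Ftl1 (chromosome 7, 45457944 to 45459886, minus strand) encodes the light chain, which helps form the iron core. It had 965, 937 and 746 CPM in DEK replicates 1, 2 and 3, against 1024, 1166 and 777 CPM in vehicle replicates 1, 2 and 3. The groups overlapped, each DEK library was slightly below its vehicle partner, and the libraries numbered 3 were the lowest of both groups. On the log2 scale its fold change within pairs was -0.15 ± 0.10 (SE). The ratio of Fth1 to Ftl1 per exon length was 1.81, 2.11 and 2.85 in DEK replicates 1, 2 and 3, against 1.68, 1.48 and 1.66 in vehicle replicates 1, 2 and 3. Each DEK library had the higher ratio of its pair. Ferritin genes have processed pseudogene copies in the mouse genome, and reads that fit more than 1 place equally well were not counted, so the levels of both chains are uncertain.

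Tfrc (chromosome 16, 32608896 to 32632794, plus strand) encodes transferrin receptor 1, the main route of iron into dividing and erythroid cells. It had 200.2, 190.4 and 295 CPM in DEK replicates 1, 2 and 3, against 231, 179.9 and 307 CPM in vehicle replicates 1, 2 and 3. The groups overlapped almost wholly, and the libraries numbered 3 were the highest in each. The log2 differences were -0.21, 0.08 and -0.06 in pairs 1, 2 and 3, with a log2 fold change of -0.06 ± 0.10 (SE) within pairs. That value turned to 0.01 without pair 1.

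Slc40a1 (chromosome 1, 45908070 to 45925594, minus strand) encodes ferroportin, the exporter of iron that is abundant in macrophages and erythroid cells. It had 102, 70.7 and 252 CPM in DEK replicates 1, 2 and 3, against 136, 107 and 278 CPM in vehicle replicates 1, 2 and 3. The groups overlapped because the libraries numbered 3 were far above the rest, yet each DEK library was below its vehicle partner. The log2 differences were -0.42, -0.60 and -0.14 in pairs 1, 2 and 3, and the fit within pairs put the log2 fold change at -0.39 ± 0.10 (SE). Slc40a1 did not pass with all libraries and the filter on low counts. It passed without pair 3, at a log2 fold change of -0.51, where 4.64% of all genes tested were called. It also passed with no filter on low counts, at -0.38.

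The erythroid marker list took 0.0740 to 0.377% of counts with DEK and 0.0859 to 0.219% with vehicle, and it too was highest in the libraries numbered 3. All 4 globin genes of that list had at most 1 count in any library, while Alas2 and Slc4a1 were present in every library. Reads that fit more than 1 place or gene equally well were not counted, so these counts do not show that globin transcripts were absent. The erythroid share may be too low for the same reason, which was not tested. None of its 8 genes tested was called, and its share averaged 0.185 ± 0.167% with DEK and 0.131 ± 0.0764% with vehicle (SD, n = 3 each; exact permutation p = 0.7, two-sided). The resident macrophage list took 0.0754 to 0.115% of counts with DEK and 0.0919 to 0.133% with vehicle (exact permutation p = 0.4, two-sided), and its share was lower with DEK in 3 of 3 pairs. Of its 13 genes, 3 were called lower within pairs (C1qb, C1qc and Mertk), where 0.413% of all genes tested were called lower. None of the 13 was at 0 in all libraries. In CPM the 3 called genes, C1qa and Mrc1 were lower with DEK in each pair. The other genes of the list (Vcam1, Adgre1, Axl, Cd163, Timd4, Spic, Hmox1 and Cd5l) were each higher with DEK in at least 1 pair. Adgre1 and Vcam1 had the highest counts of the list in every library. The part of macrophage or erythroid content in the levels of Slc40a1 and Tfrc was not tested.

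Slc39a14 (chromosome 14, 70303467 to 70351424, minus strand) encodes ZIP14, a carrier of zinc and of iron not bound to transferrin, which interleukin 6 induces in liver. It had 13.2, 18.6 and 9.35 CPM in DEK replicates 1, 2 and 3, against 12.1, 9.93 and 7.80 CPM in vehicle replicates 1, 2 and 3. Each DEK library was above its vehicle partner and the groups overlapped. Its log2 fold change was 0.43 ± 0.17 (SE) within pairs, most of it from pair 2, where the log2 difference was 0.90.

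Slc11a1 (chromosome 1, 74375203 to 74386051, plus strand) encodes NRAMP1, which pumps iron and other metals out of the phagosome. It had 99.0, 134 and 171 CPM in DEK replicates 1, 2 and 3, against 124, 135 and 95.8 CPM in vehicle replicates 1, 2 and 3. The pairs disagreed: DEK was lower in pair 1 (log2 difference -0.32), level in pair 2 (0.00) and higher in pair 3 (0.84). The paired fit gave a log2 fold change of 0.17 ± 0.26 (SE), and one of -0.16 without pair 3.

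Over the 9 genes, 5 were higher and 2 were lower with DEK in 3 of 3 pairs, where 16.3% of all genes tested were higher and 17.9% were lower in 3 of 3 pairs. Groups did not overlap for 4 of the 9, all 4 higher with DEK, where 7.19% of all genes tested did not overlap, 3.78% with DEK higher and 3.41% with DEK lower. Because the genes were chosen with these values known, nothing is read from these counts.

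**Figure D2:**
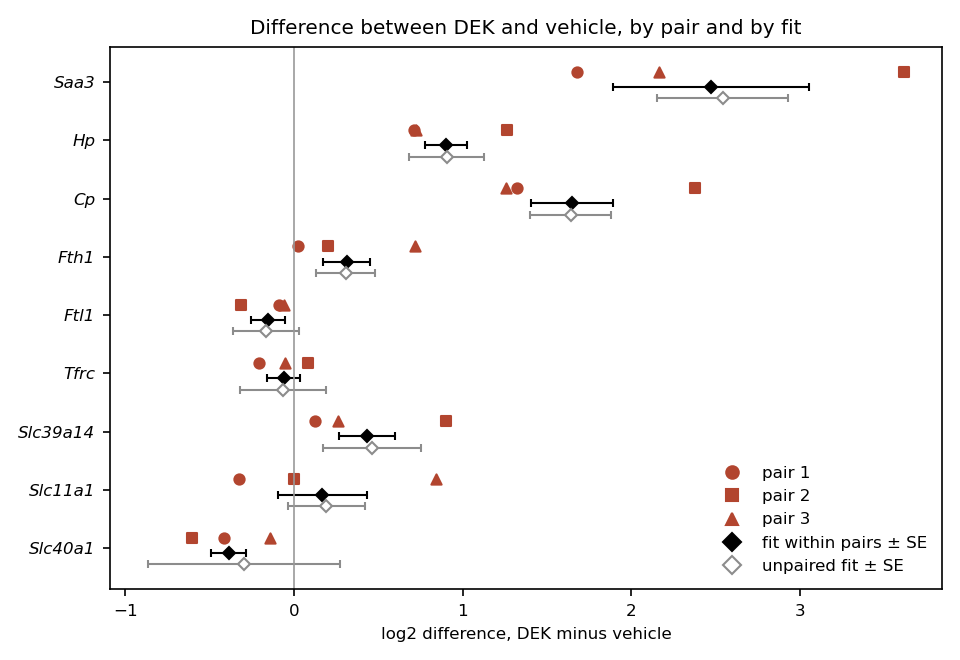
Log2 difference, DEK minus vehicle, for each gene in pairs 1 to 3 (red symbols), with the fold change ± SE of the fit within pairs (black) and of the unpaired fit (grey). Pair 2 is farthest from 0 for Saa3, Hp and Cp, at 3.62, 1.27 and 2.38, and pair 3 for Fth1 and Slc11a1, at 0.72 and 0.84.

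Per exon length, levels spanned a wide range. In RPKM (CPM divided by the exon length in kilobases), Fth1 was the highest of the 9 in every library, at 1804 to 2189 with DEK and 1331 to 1777 with vehicle. With vehicle, Ftl1 followed at 801 to 1202, then Hp at 549.6 to 780.4 and Saa3 at 119 to 212. With DEK, Hp stood at 900.4 to 1354, Saa3 at 592 to 1463 and Ftl1 at 769 to 994, so that these 3 overlapped in range. Slc40a1, Slc11a1 and Tfrc formed a middle group whose ranges overlapped in both conditions, between 20.9 and 74.5 RPKM with DEK and between 31.8 and 82.3 RPKM with vehicle. Slc39a14 and Cp were the lowest. Cp had 4.24 to 5.70 RPKM with DEK and 1.09 to 1.77 RPKM with vehicle, and Slc39a14 averaged 2.64 ± 0.893 RPKM with DEK and 1.91 ± 0.416 RPKM with vehicle (SD, n = 3 each). Every DEK library of Cp was above every DEK library of Slc39a14, while their vehicle libraries overlapped.

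**Figure D3:**
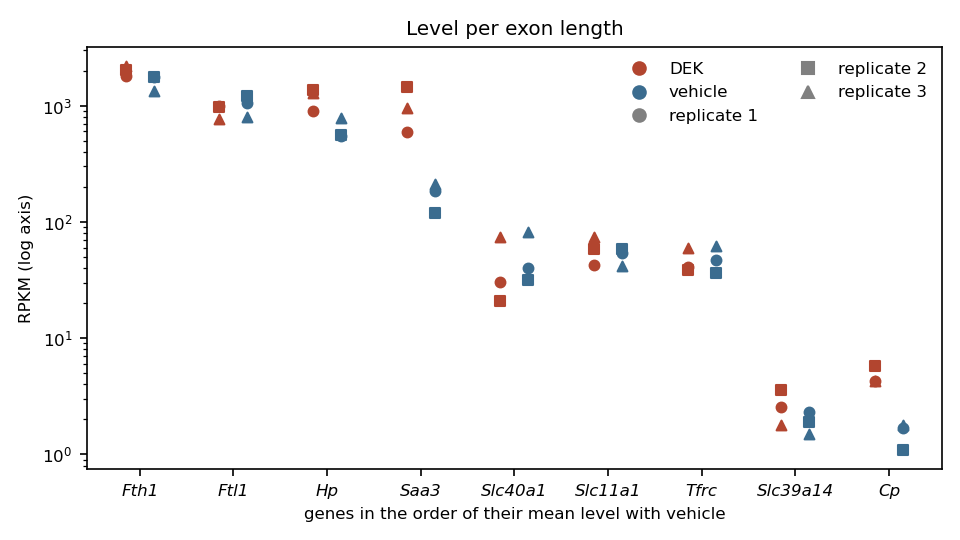
CPM per kilobase of exon (RPKM, log axis) in each DEK library (left of each gene, red) and each vehicle library (right, blue), with genes in the order of their mean level with vehicle. Saa3 stands at 592 to 1463 RPKM with DEK and 119 to 212 RPKM with vehicle, while the ranges of Slc40a1, Slc11a1 and Tfrc overlap one another.

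Genes with a like pattern were sought among 10218 others with a mean of at least 5 CPM, by Pearson's r of log2 CPM over the 6 libraries. These values describe the libraries and carry no p, since the libraries share their treatment and their replicate numbers. For Saa3 the nearest were Traf1 (r = 0.998), which encodes an adaptor of TNF receptors, Tnip1 (0.995), which encodes a partner of the NF-kB inhibitor A20, and the sugar transporter gene Slc2a6 (0.994). For Hp they were Aimp2, Sec24b and C1rl, at 0.984 to 0.995. For Cp they were Nol10, Cybb and Spata13, at 0.991 to 0.997, where Cybb encodes the catalytic subunit of the phagocyte oxidase. For Slc40a1 they were Cpd, 2810013P06Rik and Kif1b, at 0.997 to 0.998.

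Of 35 acute phase genes listed, 19 were tested, and 6 rose, 0 fell and 13 did not pass within pairs. The list was drawn up with earlier results of these data known and includes Saa3, Hp and Cp. Its median log2 fold change was 0.81, against -0.00 over all genes tested, and 17 of 19 lay above 0. The 16 listed genes that were not tested were at or near 0 counts (at most 22 in any library), among them the fibrinogen genes Fga, Fgb and Fgg, which are made in liver. Besides Hp and Cp, the genes that rose were Slpi, Lrg1, Lcn2 and Il1rn. Without pair 1, 8 genes of the list were called (7 higher and 1 lower), but Cp, Lcn2 and Il1rn no longer were (adjusted p = 0.108, 0.144 and 0.106, edgeR within pairs). Without pair 2, 0 were called, and without pair 3, 11 were (10 higher and 1 lower), the 6 among them. The shares called of all genes tested were 1.3%, 0% and 4.64% without pair 1, 2 and 3.

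Slpi, which encodes an inhibitor of neutrophil proteases, had 567, 584 and 503 CPM in DEK replicates 1, 2 and 3, against 327, 294 and 355 CPM in vehicle replicates 1, 2 and 3. The groups were well apart, and Slpi was 1.70-fold higher (log2 fold change 0.76 ± 0.11, SE; adjusted p = 0.00739, edgeR within pairs). Il1rn, which encodes the natural antagonist of the interleukin 1 receptor, had 65.0, 70.9 and 316 CPM in DEK replicates 1, 2 and 3, against 36.3, 27.8 and 214 CPM in vehicle replicates 1, 2 and 3. It rose 1.88-fold within pairs (adjusted p = 0.0277, edgeR), with groups that overlapped because the libraries numbered 3 were the highest of each. Lcn2, which encodes lipocalin 2, a neutrophil protein that withholds iron from bacteria by binding their siderophores, had 396, 405 and 2889 CPM in DEK replicates 1, 2 and 3, against 236, 219 and 2289 CPM in vehicle replicates 1, 2 and 3. It rose 1.58-fold within pairs (adjusted p = 0.0206, edgeR), beside a far larger gap between the libraries numbered 3 and the rest. Lrg1, a leucine-rich glycoprotein gene, was likewise highest in the libraries numbered 3 and rose 1.55-fold (adjusted p = 0.0130, edgeR within pairs).

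Complement C3 and the endotoxin co-receptor gene Cd14 were higher in each DEK library than in any vehicle library but did not pass (log2 fold changes 0.81 ± 0.17 and 0.77 ± 0.16, SE; adjusted p = 0.0986 and 0.101, edgeR within pairs). The metallothionein gene Mt1, which binds zinc and copper and is itself an acute phase gene in liver, lay the other way. It had 13.3, 7.47 and 7.99 CPM in DEK replicates 1, 2 and 3, against 16.3, 14.0 and 13.9 CPM in vehicle replicates 1, 2 and 3 (log2 fold change -0.66 ± 0.15, SE; adjusted p = 0.0576, edgeR within pairs). These 3 genes were chosen after their values were seen.

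Of 20 genes for the signals that drive the acute phase, 19 were tested and 3 rose, 0 fell and 16 did not pass, with a median log2 fold change of 0.25. Without pair 1, 2 or 3, 6, 0 and 5 genes of this list were called, all higher, where 1.3%, 0% and 4.64% of all genes tested were called. The 3 genes were Il1b, which encodes interleukin 1 beta, at 3.92-fold (adjusted p = 0.00293, edgeR within pairs), Cebpd, which encodes the transcription factor C/EBP delta, at 1.55-fold (adjusted p = 0.0107, edgeR within pairs), and Nfkbiz, which encodes a nuclear partner of NF-kB, at 1.63-fold (adjusted p = 0.0191, edgeR within pairs). Il1b had 109.5, 141 and 699.7 CPM in DEK replicates 1, 2 and 3, against 37.6, 26.9 and 177 CPM in vehicle replicates 1, 2 and 3. The groups of Il1b and of Nfkbiz overlapped, since the libraries numbered 3 were the highest of each group for both genes. Cebpd had 168, 222 and 167 CPM in DEK replicates 1, 2 and 3, against 112, 123 and 120.4 CPM in vehicle replicates 1, 2 and 3. Its groups did not overlap, and its exons overlap those of Spidr over 14.2% of their length, so the value is uncertain. The Il6 gene itself had 9.20, 6.47 and 5.72 CPM in DEK replicates 1, 2 and 3, against 8.78, 10.6 and 6.97 CPM in vehicle replicates 1, 2 and 3, and did not pass (log2 fold change -0.31 ± 0.17, SE, within pairs). The genes of the interleukin 6 receptor, Il6ra and Il6st, chosen like Il6 after their values were seen, stood at 0.02 and 0.25 in log2 fold change (edgeR within pairs gave adjusted p = 0.971 and 0.410).

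Over 7 lists of iron and haem genes, 3 of 63 distinct genes tested were called within pairs (4.76%, against 1.28% of all genes tested): Cp, Lcn2 and Neo1. The lists were drawn up with earlier results of these data known, and Cp and Lcn2 are also called genes of the acute phase list. Nothing is therefore read from the difference between these shares. Of 14 iron uptake genes tested, 1 rose, Lcn2, and 0 fell, with a median log2 fold change of 0.04. Of 3 export and oxidase genes tested, 1 rose, Cp, and of 7 storage genes tested 0 passed, with a median of -0.00. The storage gene with the smallest p was Ncoa4, which encodes the receptor that sends ferritin to lysosomes, at a log2 fold change of -0.37 ± 0.16 (SE; adjusted p = 0.391, edgeR within pairs). None of 13 genes for iron regulatory proteins and transcripts with iron-responsive elements passed, and their median was -0.06. Among them Slc11a2, which encodes the iron transporter DMT1, had 34.1 ± 2.70 CPM with DEK and 25.8 ± 3.12 CPM with vehicle (SD, n = 3 each), did not overlap between groups and did not pass within pairs (log2 fold change 0.41 ± 0.12, SE). The genes of the iron regulatory proteins themselves, Aco1 and Ireb2, likewise chosen, stood at -0.07 and -0.08 in log2 fold change (edgeR within pairs gave adjusted p = 0.831 and 0.804).

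Of 8 tested genes of the hepcidin axis, which sets plasma iron through ferroportin, 1 fell and 0 rose, with a median of -0.13. It was Neo1, which encodes neogenin, a co-receptor for hemojuvelin in liver and a receptor for guidance cues elsewhere, at 1.35 ± 0.528 CPM with DEK and 3.47 ± 2.05 CPM with vehicle (SD, n = 3 each), with a log2 fold change of -1.26 ± 0.26 (SE; edgeR within pairs, adjusted p = 0.0361). That call was lost without pair 1 and without pair 2, where 1.3% and 0% of all genes tested were called. Hepcidin itself, Hamp, had at most 8 counts in any library and was not tested. None of 12 haem recycling genes passed, with a median of -0.04. The haem oxygenase gene Hmox2 had a log2 fold change of -0.16 ± 0.09 (SE; adjusted p = 0.551, edgeR within pairs), uncertain because its exons overlap Cdip1 over 29.2% of their length, and the biliverdin reductase gene Blvrb had one of 0.52 ± 0.21 (SE; adjusted p = 0.441, edgeR within pairs). None of 14 genes of mitochondrial iron use passed, with a median of 0.10. The nearest was Alas1, which encodes the first enzyme of haem synthesis outside the erythroid lineage, at 577 ± 67.7 CPM with DEK and 429 ± 26.7 CPM with vehicle (SD, n = 3 each; log2 fold change 0.42 ± 0.11, SE; adjusted p = 0.106, edgeR within pairs).

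**Figure D4:**
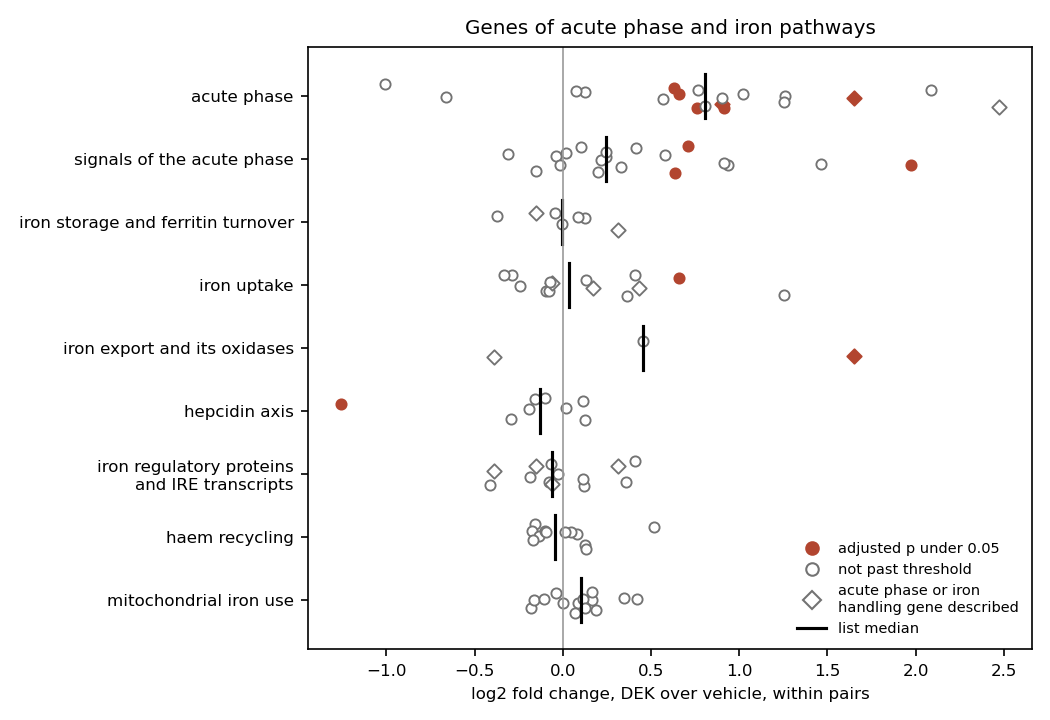
Log2 fold change within pairs, DEK over vehicle, of each tested gene in 9 lists (rows), with filled red symbols for genes past an adjusted p of 0.05, diamonds for the 9 genes described and black bars for list medians. The acute phase list has 6 called genes and a median of 0.81, and the iron and haem lists other than that of export have medians from -0.13 to 0.10.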

How the data were processed

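The deposited values are raw read counts per gene, which per the file headers featureCounts 1.6.1 summed over the exons of each gene (mm10), with strand, multi-mapping and overlap options left at their defaults. Per the submitters' processing notes, Trim Galore, STAR, HTSeq and edgeR were used; the header describes the counts used here. Exon lengths per gene are also as deposited. Per the labels' protocols, libraries were made with a stranded kit that selects mRNA.

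Tests used R 4.3.3, edgeR 4.0.16, limma 3.58.1 and DESeq2 1.42.0. Genes were kept by filterByExpr (13803 of 24421) and scaled by TMM. The main test was edgeR's robust quasi-likelihood test without a block, two-sided, adjusted by Benjamini-Hochberg over all genes tested at a threshold of 0.05. Log2 CPM used a prior count of 2, and standard errors come from the F statistic. The fits were tested on simulated data in which equal replicate numbers shared an effect. That test therefore cannot show whether the real libraries are paired. The alternative with the replicate number as a block is quoted because of a pairing check, the correlation across genes of deviations from group means. It gave 0.55, 0.56 and 0.80 for numbers 1, 2 and 3, all above the limit of 0.1. Unequal numbers 1 and 2 also passed that limit, at 0.41 and 0.52. The check therefore cannot show that numbers 1 and 2 are pairs, and the labels give no source for pairing. The 9 genes and the lists were chosen with earlier results of these data known. Named were the 9 genes, up to 6 called genes per list or else the 2 with the smallest p, and overlapping or copied genes. Some genes this rule covers are not reported here. From 3 listed symbols, older names were matched through RefSeq synonyms. Depth differed by less than 1.5 times between libraries, and reads carry no molecular identifiers.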

Additional observations from a re-analysis of the deposited data

How the results depend on the processing

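The count of called genes changed with the replicate block and with which replicate numbers were kept. Without the block, edgeR called 0 genes and 0 of the 9 described, also with DESeq2 size factors, with no filter and with limma-voom, while DESeq2 called 56 and 2. Leaving out single libraries gave 0 to 1 genes and 0 of the 9, and leaving out a replicate number without the block gave 0 to 168 genes and 0 to 2 of the 9. With the replicate block the counts were 177 and 2 with TMM, 176 and 2 with DESeq2 size factors, 349 and 2 with no filter (Hp and Slc40a1), 350 and 3 with DESeq2 (Saa3, Hp and Cp), 211 and 2 with limma-voom, and 177 and 2 without Rn45s or without the neutrophil markers. With the block and a replicate number left out they ranged over 0 to 641 and 0 to 3, 181 and 1 without number 1, the lowest without number 2 and the highest without number 3 (Hp, Cp and Slc40a1). The acute phase list had 0 called genes without the block, 6 with it and 8, 0 and 11 with number 1, 2 or 3 left out, and the list of its signals 0, 3 and then 6, 0 and 5, settings chosen after seeing the data.

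Directions of Saa3, Hp, Cp, Fth1, Ftl1 and Slc39a14 were kept in all these fits. The log2 fold change of Tfrc, -0.07 unpaired, ranged over -0.30 to 0.15 with single libraries left out and turned to 0.02, 0.05 and 0.15 without DEK replicate 1, DEK replicate 2 and vehicle replicate 3, and to 0.012 with the block and without number 1. That of Slc11a1, 0.19 unpaired, ranged over -0.022 (without DEK replicate 3) to 0.37, and turned to -0.15 without number 3 and -0.16 there with the block. That of Slc40a1, -0.30 unpaired, ranged over -1.01 to 0.22 and turned to 0.02 without DEK replicate 2 and 0.22 without vehicle replicate 3. Differences in marker shares, DEK minus vehicle, ranged with libraries left out from -1.96 to 1.80 percentage points for neutrophils and from -0.0425 to 0.109 for erythroid cells, and kept their sign for monocytes and resident macrophages. The cause was not tested. Fold differences as small as those of the iron genes are limited by 3 libraries per group.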
